A study of Zea mays with 8 samples.

Results

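Heat shock proteins are chaperones, which hold, refold or break up other proteins, and their genes are best known for strong induction by heat. The HSP90 and HSP70 families work in ATP-driven cycles on client proteins, and the small heat shock proteins bind unfolding proteins without ATP and keep them soluble until an HSP70 or the HSP100 disaggregase takes them up. In seeds some of them also appear without heat during development. Described here are 4 maize heat shock genes, of 39423 genes in the deposited table: hsp82 (GRMZM5G833699), an HSP90 gene, hsp1 (GRMZM5G802801), which the name table also lists as hsp70, and the small heat shock protein genes hsp18f (GRMZM2G083810) and HSP18 (GRMZM2G404249, also listed as hsp18a). They were chosen by name and from their levels in the same 8 libraries, because hsp82 was higher and the other 3 were lower in ded1-ref endosperm. The difference between the groups in these genes is therefore given as a description, with no test. Each of the 4 has 1 transcript row.

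The libraries are from endosperm, the storage tissue of the kernel, of maize in the W22 background, 12 days after pollination. Of the 8 libraries, 4 are of normal kernels and 4 are of kernels labelled ded1-ref, a mutation of ded1 (GRMZM2G121570), a gene for a MYB transcription factor. The mutant and the normal library of a pair come from sibling kernels and share a prefix and a replicate number in their titles, and each library is a pool of kernels. The labels give no heat treatment and no growth temperature. In the libraries labelled ded1-ref ded1 itself was higher, not lower (39.4 ± 2.18 against 76.3 ± 16.3 TPM, SD, n = 4), so its level does not check the labels, and directions refer to libraries as labelled.

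Levels are TPM, shares of a library per transcript length, which have the same sum in each library. The recovered depth ran from 10536845 to 20725033 reads per library. On this scale the median log2 change over tested genes was -0.68, and 11097 to 13100 genes reached 1 TPM in a ded1-ref library against 14147 to 14597 in a normal one. Levels were therefore also divided by a factor per library, the median of ratios over genes, which brings the median change to -0.0029. These are called scaled TPM and show a gene relative to the median gene. In bulk tissue, fewer cells of a type and less RNA per cell cannot be told apart. Of 11 matched endosperm marker genes 10 reached 1 TPM in at least 4 libraries, and their summed level was 48070 to 63770 TPM in normal and 32660 to 42790 TPM in ded1-ref libraries, but 35530 to 46270 and 38680 to 70080 on scaled TPM. Of these 10 genes 8 were lower on TPM, and on scaled TPM none was lower and gz50 was higher (scaled log2 change 1.06, limma adjusted p = 0.00453). Of 10 embryo marker genes 4 reached 1 TPM in at least 4 libraries, with sums of 297.7 to 527.8 and 242.6 to 460.1 TPM. On scaled TPM the embryo sums did not overlap, at 220 to 382.9 in normal and 397.3 to 664.7 in ded1-ref libraries. Most of these sums was ole1 alone, with means of 385.3 TPM in normal and 324.9 TPM in ded1-ref libraries. MGL3 rose on both scales, from 6.17 to 19.1 TPM (limma adjusted p = 0.0096 on TPM and 0.0072 on scaled TPM). On scaled TPM alone ole1 and wox2A were higher too (limma adjusted p = 0.0306 and 0.013). KN-1 and glb2 were at 0 TPM in normal libraries and wus1 in both groups. All 4 aleurone marker genes reached 1 TPM in at least 4 libraries, with sums of 14.95 to 19.69 and 11.18 to 35.1 TPM. On scaled TPM the aleurone sums did not overlap, at 10.93 to 14.29 in normal and 18.32 to 50.7 in ded1-ref libraries. Of these 4 genes 3 rose on both scales: a2 from 0.0783 to 8.08 TPM, bronze-2 from 0.169 to 2.51 TPM and c1 from 2.53 to 5.94 TPM (limma adjusted p = 1.99e-05, 3.63e-05 and 0.0471 on TPM, and 0.000297, 0.000135 and 0.0259 on scaled TPM). Since a2 and bronze-2 reached 1 TPM in ded1-ref libraries only, they passed the filter through the group where they were high. The fourth, dek1, was at 13.7 and 7.88 TPM with a scaled change of -0.06 (limma adjusted p = 0.00892 on TPM and 0.893 on scaled TPM). The 4 aleurone marker genes thus did not move together, and their sum does not measure the amount of aleurone. The maternal marker m6 did not reach the filter (0.432 to 3.87 and 0.354 to 1.296 TPM). The part of these cell types in the results below was not tested.

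hsp82 encodes a heat-inducible form of HSP90, the chaperone that matures kinases, receptors and other regulators. Normal replicates 1 to 4 held 2.77, 2.33, 3.88 and 4.73 TPM of hsp82, and the ded1-ref libraries, in the same order, held 10.4, 7.98, 15.7 and 18.8 TPM. Every ded1-ref library was above every normal library, and replicate 2 was the lowest of its group in both. Over all tested genes, groups that did not overlap with ded1-ref higher made up 2.14% on this scale and 12.0% on the scaled one. These levels rest on 60 to 158 reads per normal library and 379 to 848 per ded1-ref library, and the lowest count, 60 reads, has an exact 95% Poisson interval of 45.8 to 77.2 reads, for counting error only. The means were 3.43 ± 1.08 and 13.2 ± 4.91 TPM (SD, n = 4), a ratio of 3.86. The log2 change on the log2(TPM + 1) scale, which understates changes of low genes, was 1.65 ± 0.19 (SE), and it ran from 1.43 in pair 2 to 1.79 in pair 4. On scaled TPM the change was larger, 2.35 ± 0.19, from 1.81 in pair 2 to 2.81 in pair 3. For hsp82 the authors' deposited table has a log2 fold of 2.64 with a standard error of 0.323.

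hsp1 belongs to the HSP70 family, which binds short stretches of unfolded proteins with the help of J-domain partners. Normal replicates 1 to 4 held 64.1, 72.6, 128.5 and 101.7 TPM of hsp1, and the ded1-ref libraries, in the same order, held 26.6, 26.4, 39.2 and 39.04 TPM. The groups did not overlap on this scale, but 52.6% of all tested genes likewise had every ded1-ref library below every normal one. The means were 91.7 ± 29.3 and 32.8 ± 7.29 TPM (SD, n = 4), and the log2 change was -1.43 ± 0.14 (SE). Relative to the median gene much less of this remained. Scaled levels were 49.5 to 93.2 in normal and 26.7 to 64.2 in ded1-ref libraries, so that the groups overlapped, with a change of -0.60 ± 0.13 and a lower level in 4 of 4 pairs (from -0.87 in pair 2 to -0.40 in pair 1). For hsp1 the authors' deposited table has a log2 fold of -0.56 with a standard error of 0.277.

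hsp18f, a small heat shock protein gene, had the highest level of the 4. Normal replicates 1 to 4 held 251.0, 286.0, 322.9 and 229.2 TPM of hsp18f, and the ded1-ref libraries, in the same order, held 98.7, 136.2, 108.6 and 107.4 TPM. The groups did not overlap on this scale, as in most tested genes. The means were 272 ± 41.1 and 113 ± 16.3 TPM (SD, n = 4), with a log2 change of -1.26 ± 0.13 (SE). Scaled levels were 169.4 to 234.3 in normal and 135.1 to 177.8 in ded1-ref libraries, which overlap, and the scaled change of -0.43 ± 0.12 was the smallest of the 4, although it was below 0 in 4 of 4 pairs. For hsp18f the authors' deposited table has a log2 fold of -0.42 with a standard error of 0.165.

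HSP18, a second small heat shock protein gene, lay lowest in ded1-ref relative to normal endosperm of the 4. Normal replicates 1 to 4 held 27.4, 36.4, 41.4 and 26.8 TPM of HSP18, and the ded1-ref libraries, in the same order, held 4.84, 8.83, 6.76 and 6.51 TPM. The groups stayed apart on the scaled levels as well (19.8 to 30.02 against 6.997 to 11.07), where 12.0% of tested genes did the same with ded1-ref lower. The ded1-ref libraries held 79 to 124 reads each, and the lowest count, 79 reads, has an exact 95% Poisson interval of 62.6 to 98.5 reads. The means were 33.01 ± 7.09 and 6.74 ± 1.64 TPM (SD, n = 4), 4.90 times lower in ded1-ref. The log2 change was -2.14 ± 0.17 (SE) on TPM and -1.36 ± 0.14 on scaled TPM, and the scaled change ran only from -1.51 in pair 1 to -1.18 in pair 4. For HSP18 the authors' deposited table has a log2 fold of -1.42 with a standard error of 0.215.

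**Figure D1:**
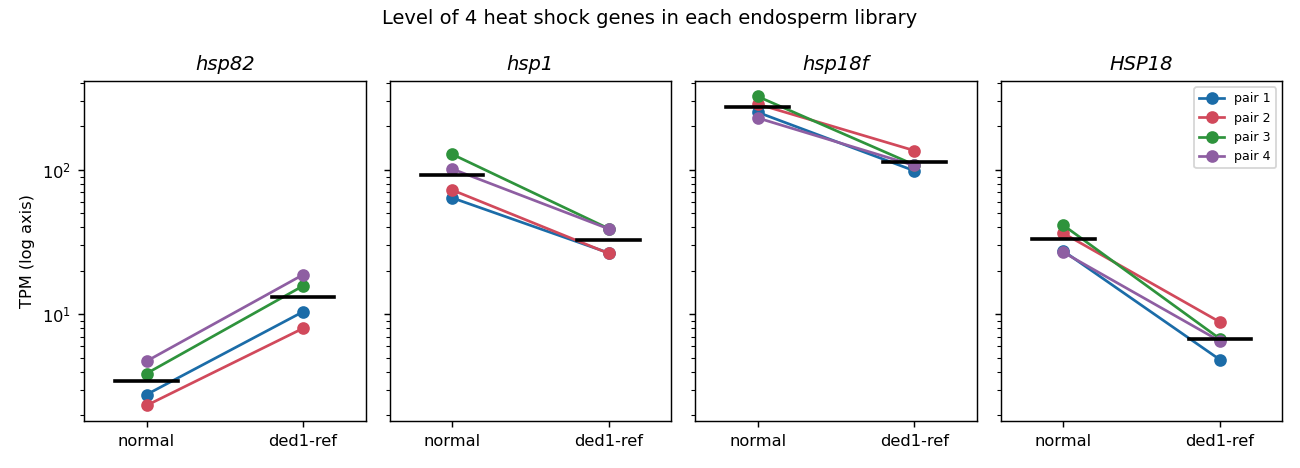
TPM of hsp82, hsp1, hsp18f and HSP18 in each library on a log axis, with a line joining the normal and the ded1-ref library of each pair and a black bar at the mean of each group (n = 4). hsp82 went up in every pair, from a mean of 3.43 to 13.2 TPM, and the other 3 went down in every pair.

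The order of the levels differed between the groups. In normal endosperm it was hsp18f, hsp1, HSP18 and hsp82, and no neighbours in this order overlapped. In ded1-ref endosperm it was hsp18f, hsp1, hsp82 and HSP18. There the last pair was not separated by its spread, since hsp82 ran from 7.98 to 18.8 TPM and HSP18 from 4.84 to 8.83 TPM, and in replicate 2 HSP18 was still the higher of them. By mean level, hsp82 was above 27.6% of tested genes in normal and above 73.8% in ded1-ref endosperm, and HSP18 went the other way, from above 81.4% to above 59.1%. hsp18f and hsp1 kept high places, above 97.9% and 93.3% of tested genes in normal and above 96.99% and 88.7% in ded1-ref endosperm.

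Ratios of genes within a library do not depend on how the library is scaled, so they show the shift between the members directly. The level of hsp82 over that of HSP18 was 0.101, 0.0640, 0.0938 and 0.176 in normal replicates 1 to 4 and 2.15, 0.904, 2.32 and 2.88 in ded1-ref replicates 1 to 4. The ratio of hsp82 to hsp1 was 0.0380 ± 0.00807 in normal and 0.394 ± 0.0729 in ded1-ref endosperm (SD, n = 4). The 3 lower genes were not lowered alike. The ratio of hsp18f to HSP18 was 8.34 ± 0.638 in normal and 17.1 ± 2.24 in ded1-ref libraries, with no overlap, whereas the ratio of hsp1 to hsp18f was 0.338 ± 0.0978 and 0.297 ± 0.0816 and overlapped.

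Families were taken by name, and only 2618 of the 39423 genes had an informative name. Shares are therefore of the named genes of a family, which need not be the whole family. Among the named HSP90 genes, hsp82 was a minor one that became less minor. HSP90-2 (GRMZM2G012631) supplied most of the transcript of these genes in both groups. It held 95.98% ± 1.94 of the summed TPM of the 3 named HSP90 genes in normal and 90.9% ± 3.89 in ded1-ref endosperm (SD, n = 4). The share of hsp82 was 0.905%, 0.566%, 0.935% and 1.04% in normal replicates 1 to 4 and 4.17%, 2.58%, 5.25% and 6.40% in ded1-ref replicates 1 to 4. Every ded1-ref share was above every normal share. The direction of the summed level of these named genes depended on the scale. It was 397 ± 63.3 TPM in normal and 288 ± 26.5 TPM in ded1-ref endosperm, lower in 4 of 4 pairs, but 290.4 ± 38.4 and 383 ± 75.5 scaled TPM, higher in 4 of 4 pairs with overlapping groups. Among the named HSP70 genes a second gene, Hsp70 (GRMZM2G310431), held the larger part. The share of hsp1 was 15.4% ± 1.91 in normal and 11.8% ± 2.79 in ded1-ref libraries, lower in 4 of 4 pairs but with overlapping groups.

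Among the 5 named small heat shock protein genes hsp18f held 74.7% ± 3.55 of the summed level in normal and 74.5% ± 1.32 in ded1-ref endosperm (SD, n = 4), a difference smaller than the spread within either group. Below it, HSP18 held a smaller and hsp26 a larger part in ded1-ref endosperm. HSP18 held 8.14%, 9.03%, 9.46% and 9.31% in normal replicates 1 to 4 and 3.66%, 4.74%, 4.75% and 4.49% in ded1-ref replicates 1 to 4. hsp26 (GRMZM2G149647, also listed as hsp18), known in maize as a small heat shock protein of plastids, held 2.65% ± 0.656 in normal and 11.96% ± 1.83 in ded1-ref endosperm. The groups did not overlap for either gene. hsp18c held 13.5% ± 4.40 in normal and 8.86% ± 2.74 in ded1-ref endosperm, with overlapping groups, and was above HSP18 in every library but normal replicate 4. Reads of near-identical copies in these families may have been split between genes, since how multiply mapped reads were counted is not given in the sources used here.

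**Figure D2:**
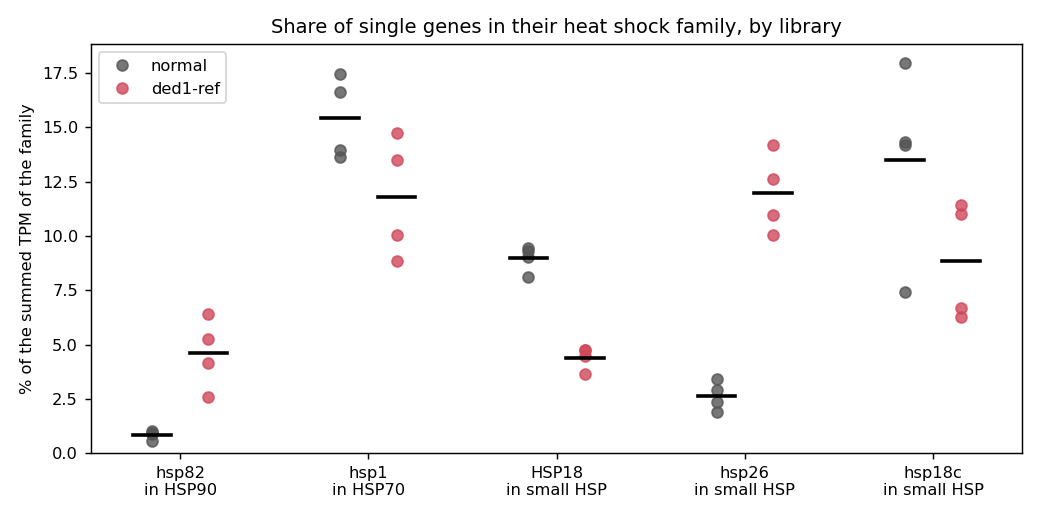
Share of a gene in the summed TPM of the named genes of its family, in % on a linear axis from 0, for 5 heat shock genes. Points are libraries (4 per group) and black bars are group means. The shares of hsp82 and hsp26 are higher in every ded1-ref library than in any normal one (hsp82 means 0.861% and 4.60%), and that of HSP18 is lower.

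Further genes of the chaperone network were taken by name, which leaves out those without an informative name. In this way 24 further heat shock, chaperonin, co-chaperone and heat shock factor genes matched. Of these, 15 passed the level filter (1 TPM in at least 4 libraries) and were tested with limma. The counts below therefore do not survey the whole network. On TPM 1 was higher and 11 were lower, where 3.53% and 69.8% of all 13671 tested genes were. On scaled TPM 1 was higher and 3 were lower, where 12.3% and 10.6% of all tested genes were. These same numbers, 1 and 3, passed on both scales (3.53% and 10.6% of all genes), and only those are said to have risen or fallen. The median log2 change of the 15 was -0.83 on TPM and -0.14 on scaled TPM, close to -0.68 and -0.0029 over all tested genes.

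hsp26 was the gene that rose. Normal replicates 1 to 4 held 9.81, 7.70, 10.3 and 9.85 TPM of hsp26, and the ded1-ref libraries, in the same order, held 13.3, 20.4, 17.96 and 20.6 TPM. Every ded1-ref library was above every normal one. The log2 change was 0.86 ± 0.19 (SE; limma adjusted p = 0.00164) on TPM and 1.63 ± 0.16 on scaled TPM (limma adjusted p = 0.00016), higher in 4 of 4 pairs.

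The genes that fell were hsp18c, Hsf03 and one model of CPN60I. hsp18c (GRMZM2G034157) is a further small heat shock protein gene. Its levels in normal replicates 1 to 4 were 48.4, 72.4, 62.1 and 21.4 TPM, and those in the ded1-ref libraries, in the same order, were 15.1, 20.5, 8.97 and 9.70 TPM. Normal replicate 4 was the lowest of its group and on TPM lay just above the highest ded1-ref library. On scaled TPM the groups of hsp18c overlapped, with normal replicate 4 at 15.8 and ded1-ref replicates 1 and 2 at 21.9 and 20.7. Its log2 change was -1.78 ± 0.22 (SE) on TPM and -0.98 ± 0.19 on scaled TPM (limma adjusted p = 3.3e-05 and 0.00664; limma adjusted p = 0.0579 on scaled TPM without the replicate block). Hsf03 (GRMZM2G164909) is by name a heat shock factor, one of the transcription factors that bind heat shock gene promoters. It fell from 3.10 ± 2.22 to 0.400 ± 0.344 TPM (SD, n = 4), on 239 and 43 reads in all. Every ded1-ref library was below 1 TPM, so Hsf03 passed the level filter through the normal libraries, where it was high. On scaled TPM the groups of Hsf03 overlapped, with ded1-ref replicate 4 above normal replicates 1 and 2. Its log2 change was -1.42 ± 0.23 (SE) on TPM and -1.01 ± 0.22 on scaled TPM (limma adjusted p = 2.28e-04 and 0.00961; limma adjusted p = 0.0537 on scaled TPM without the block and 0.053 without the level filter). Its size depended on the settings, with -2.66 at a pseudocount of 0.1 and -2.02 with limma-voom on recovered reads. CPN60I is a chaperonin gene, of the barrel-shaped chaperones of mitochondria, and the table splits it into 2 gene models. Of these GRMZM2G111477 fell, from 86.4 ± 10.6 to 34.4 ± 6.58 TPM, with a scaled change of -0.49 ± 0.13 (limma adjusted p = 0.0296, but 0.11 without replicate 1, 0.123 without replicate 2 and 0.0588 without the level filter). GRMZM2G458208 stood at 319 ± 43.9 and 139.5 ± 38.5 TPM with a scaled change of -0.39 that did not pass (limma adjusted p = 0.244).

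HSP90-2, Hsp70 and hsp101 were lower on TPM and did not pass relative to the median gene. HSP90-2 stood at 380 ± 56.5 and 262 ± 27.7 TPM, with a scaled log2 change of 0.31 ± 0.14 (limma adjusted p = 0.146), of the opposite sign. Hsp70 (GRMZM2G310431) stood at 495 ± 106.1 and 247 ± 19.4 TPM (scaled change -0.14, limma adjusted p = 0.505). hsp101, the HSP100 disaggregase that pulls proteins out of aggregates, stood at 156.5 ± 54.5 and 86.5 ± 16.2 TPM, and its scaled change was 0.04 (limma adjusted p = 0.876). HSP90-1 (GRMZM2G024668) varied within both groups, from 6.37 to 25.7 TPM in normal and from 6.19 to 26.3 TPM in ded1-ref libraries, and passed on neither scale (limma adjusted p = 0.984 and 0.171). Of the other tested heat shock factor genes Hsf26, hsfb, Hsf17 and Hsf05 (GRMZM2G133023), none passed on scaled TPM, with changes from -0.23 for Hsf26 to 0.55 for Hsf05. hsp22, known as a mitochondrial small heat shock protein, stayed at 0.448 to 1.04 TPM in normal and 0.182 to 0.850 TPM in ded1-ref libraries and was too low for a test.

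**Figure D3:**
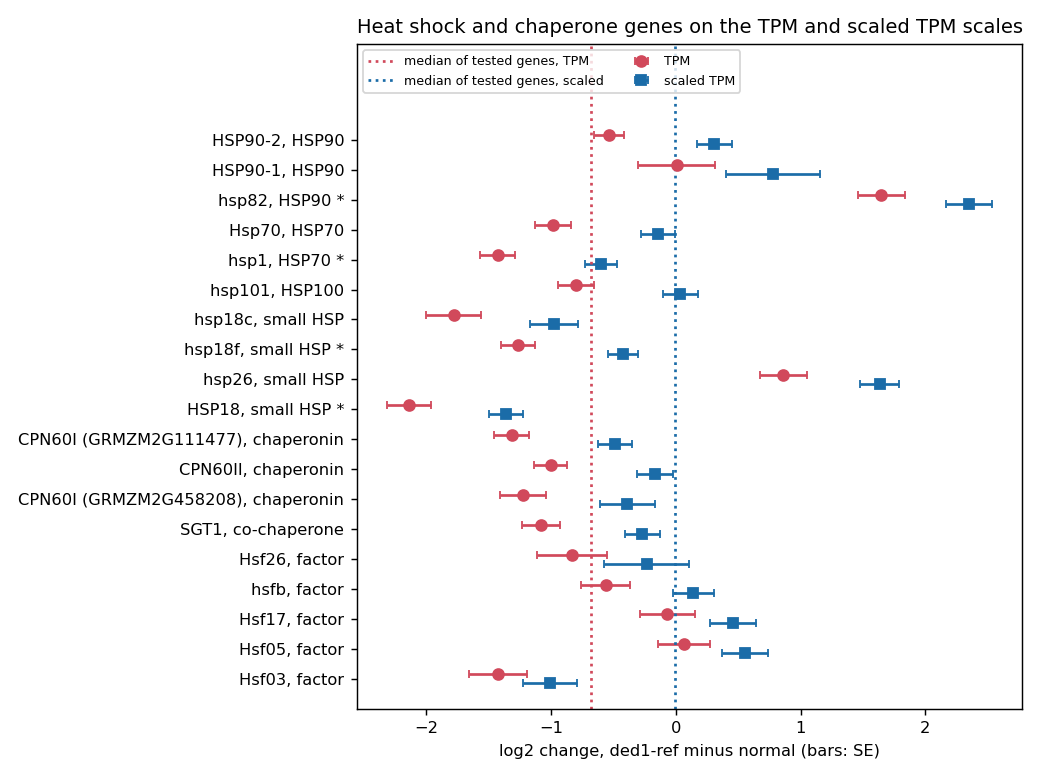
Log2 change (ded1-ref minus normal, bars are SE, n = 4 pairs) of the 4 described genes, marked with an asterisk, and the 15 other tested heat shock and chaperone genes, on TPM (circles) and scaled TPM (squares), with dotted lines at the medians of all tested genes (-0.68 and -0.0029). hsp82 and hsp26 lie far to the right of both medians, and HSP18, hsp18c and Hsf03 to the left.

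The chaperones of the endoplasmic reticulum, which fold zeins and other secreted proteins, were set beside them. Of 12 tested genes 10 were lower on TPM, where 69.8% of all tested genes were. On scaled TPM 2 were higher and 2 were lower, where 12.3% and 10.6% of all tested genes were. The genes higher on scaled TPM did not pass as higher on TPM. CRT (GRMZM2G358059), a calreticulin gene by its name, stood at 183 ± 7.65 and 222 ± 23.4 TPM (limma adjusted p = 0.0625) and at 134 ± 4.39 and 293 ± 36.5 scaled TPM (limma adjusted p = 0.000347), higher in 4 of 4 pairs on both scales. pdi8 (GRMZM2G389173), by its name of the disulfide isomerase family, stood at 170 ± 27.7 and 135 ± 22.2 TPM but at 125 ± 14.8 and 179 ± 39.8 scaled TPM, so that its sign differed between the scales (limma adjusted p = 0.0255 and 0.0348). Those lower on both scales were pdi2 (GRMZM2G163421), from 27.06 ± 1.18 to 2.79 ± 0.780 TPM, and PDIL5-1 (GRMZM2G443655), from 320.5 ± 12.7 to 102 ± 32.2 TPM, both of the disulfide isomerase family (limma adjusted p = 3.94e-07 and 3.43e-06 on TPM, and 4.4e-05 and 0.0033 on scaled TPM). A second gene model named PDIL5-1, GRMZM2G073628, did not pass on scaled TPM (scaled log2 change -0.54, limma adjusted p = 0.127).

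Differences among the 4 pairs, which the choice of the genes did not use, were also read, a question added after the values were seen. hsp82 was high in both libraries of pairs 3 and 4 and low in both of pairs 1 and 2. Its scaled level lay 0.95 log2 units below the mean of its own group in ded1-ref replicate 2 (a deviation of -0.95) and -0.42 in normal replicate 2, against 0.60 and 0.14 in replicate 3. hsp1 did the same, with deviations of -0.65 and -0.38 in replicate 2 and 0.59 and 0.52 in replicate 3, ded1-ref first. hsp101, picked for its small p, had -0.64 and -0.73 in replicate 2 and 0.55 and 0.31 in replicate 3. Hsf17 also lay below its group mean in both libraries of pairs 1 and 2 and above it in both of pairs 3 and 4 (limma F-test on scaled TPM, unadjusted p = 0.0284). Other list genes went another way: hsp18c was above its group mean in both libraries of pairs 1 and 2 and below it in both of pair 4 (unadjusted p = 0.00922), and CPN60II had the same sign in 0 of 4 pairs. Of the 15 list genes 2 had the same sign in both libraries of 4 of 4 pairs (13.3%), close to the 13.2% of all tested genes. HSP18 deviated in the same direction in both libraries of 4 of 4 pairs as well, but by at most 0.32 log2 units, and it was low, not high, in pair 4. hsp18f did so in 3 of 4 pairs. In the titles the prefix of pair 2 begins with another number than those of pairs 1, 3 and 4. Its part in these differences was not tested. A limma F-test of the pair term on scaled TPM gave unadjusted p = 0.00714 for hsp82, 0.00115 for hsp1, 0.00104 for hsp101, 0.145 for hsp18f and 0.0824 for HSP18. None passed after adjustment over all genes (limma adjusted p = 0.252, 0.131, 0.130, 0.569 and 0.499), where 0.146% of tested genes did on scaled TPM and 0.388% on TPM. Of the 15 list genes 6 (40%) had an unadjusted p under 0.05 in this F-test on scaled TPM, against 11.2% of all tested genes. None of the 15 passed after adjustment.

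**Figure D4:**
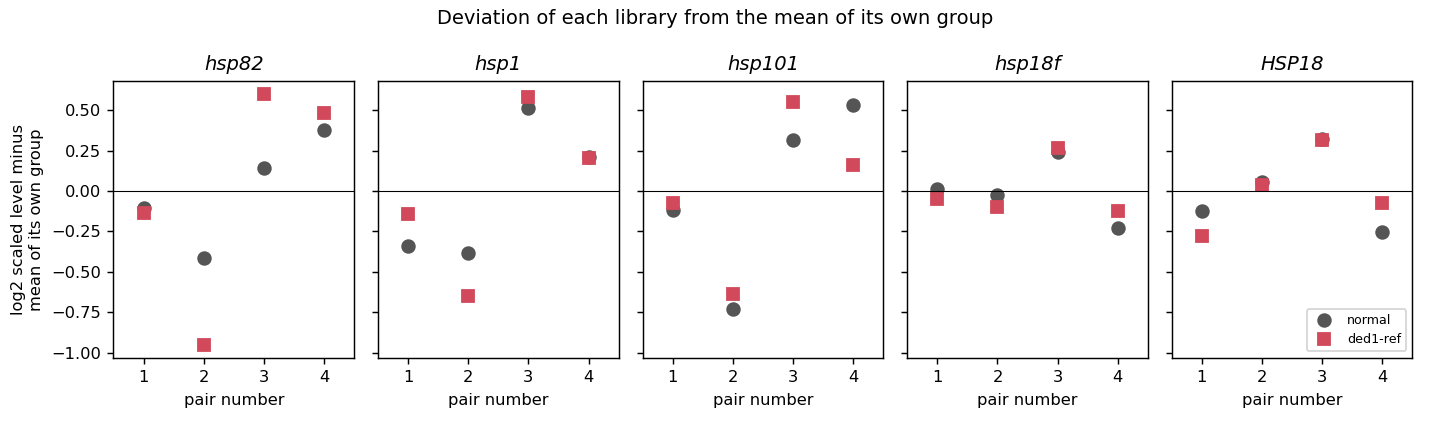
Deviation of each library from the mean of its own group, in log2 of scaled TPM + 1, by pair number for the 4 described genes and hsp101; circles are normal and squares ded1-ref libraries. For hsp82, hsp1 and hsp101 both libraries of pair 2 lie below 0 and both of pairs 3 and 4 above it, while hsp18f and HSP18 stay within 0.32 of their group mean.

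The genes with an informative name whose pattern over the 8 libraries lay nearest were listed by the root mean square distance of their centred log2 scaled levels. Nearest to hsp82 was Aox (GRMZM2G125669), alternative oxidase of mitochondria, at a distance of 0.411, against a spread of hsp82 itself of 1.27. Aox went from 0.412 ± 0.0854 to 4.16 ± 0.240 TPM (SD, n = 4), so it passed the level filter through the ded1-ref libraries. The distances use log2 of scaled TPM + 1, which understates changes of genes as low as Aox. BX14 (distance 0.487), of benzoxazinoid synthesis, and sod4 (distance 0.494), a superoxide dismutase gene, came next. BX14 went from 0.755 ± 0.211 to 6.13 ± 0.643 TPM. Its normal mean was under the filter level of 1 TPM, so BX14 too passed through the ded1-ref libraries. Nearest to hsp1 were his2b5, a histone H2B gene, lls1 and INO1, the inositol phosphate synthase gene, at 0.225, 0.250 and 0.256, with a spread of hsp1 itself of 0.515. Nearest to hsp18f were aprl6, DER1.2 and dhar3, at 0.109, 0.120 and 0.136, with a spread of 0.267. Nearest to HSP18 were ms8, gpi, glucose-6-phosphate isomerase, and TUBB2, at 0.187, 0.218 and 0.218, with a spread of 0.712. Here ms8 went from 2.02 ± 0.671 TPM to 0 TPM in every ded1-ref library, so it passed the filter through the normal libraries. No heat shock gene was among these 12. Besides the members, only 15 listed heat shock and chaperone genes were among the 1221 named genes searched, so their absence carries little weight. Among the members themselves, hsp1 and hsp18f were the closest pair, at 0.371, and hsp82 and HSP18 the farthest, at 1.92. Even the distance of 0.371 was larger than the spread of hsp18f itself, 0.267, so these patterns were not close.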

How the data were processed

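The 8 endosperm libraries were not strand-specific, per the labels' protocols, so reads of a gene and an overlapping antisense partner cannot be told apart. Reads were handled with GSNAP, cutadapt 1.1 and Trimmomatic 0.22, per the submitters' processing notes. The counter and genome build were not given in the sources used here. TPM were deposited by the authors for 63293 transcript rows. They also deposited a table with the columns of DESeq2, per the file headers: a mean normalized signal, a log2 fold, a standard error and a test score for each row, and p-values before and after adjustment. No column holds counts, but both tables together gave whole reads, within 0.05, for 100% of 236228 values above 0.

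Rows were summed to genes, and the 13671 genes that reached 1 TPM in 4 or more libraries entered limma 3.58.1 (limma-trend, R 4.3.3) on log2(TPM + 1) and on scaled TPM, with pair number as a block and Benjamini-Hochberg adjustment at 0.05. The design text states the pairing, and deviations of paired libraries from their group means correlated at 0.116, 0.333, 0.309 and 0.149 in the 4 pairs. The test was tried on simulated data. Alternatives were upper quartile scaling, a pseudocount of 0.1, no filter, at least 10 reads, limma-voom on recovered reads, no block and each pair left out. The name table was of assembly Zm-B73-REFERENCE-NAM-5.0 and matched 18771 genes, with an informative name for 2618. The name patterns caught 7 genes wrongly, which were left out. Members and lists were chosen with earlier results of these data known. The text names the 4 members, list genes called on both scales, the 3 named genes nearest to each member, and other list genes to fill in their families, these last chosen after their values were seen. Promoter motifs and protein identities were planned but not analysed here.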

Additional observations from a re-analysis of the deposited data

Results flagged for a closer look

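Among 38 groups of 4 libraries examined (19 heat shock and chaperone genes in each group), 2 held a library far from the other 3; chance flags about 1 in 20 such groups. Hsf26 (GRMZM2G003489) stood at 11.75 TPM in normal replicate 4, against 2.29 to 3.76 TPM in the other normal libraries. CPN60I (GRMZM2G458208) stood at 253.9 TPM in normal replicate 1, against 333.3 to 348.8 TPM in the other normal libraries. No library was flagged for hsp82, hsp1, hsp18f or HSP18.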

How the results depend on the processing

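The direction of hsp82, hsp1, hsp18f and HSP18 was the same under every alternative run, but scaling set the size. The log2 changes of -1.43 (hsp1), -1.26 (hsp18f) and -2.14 (HSP18) on TPM were -0.60, -0.43 and -1.36 on scaled TPM, -0.73, -0.56 and -1.49 with upper quartile scaling and -0.61, -0.43 and -1.45 with limma-voom on recovered reads. That of hsp82, 1.65, was 2.35, 2.24 and 2.81, and 1.89 with a pseudocount of 0.1. Over all genes, 482 were higher and 9539 lower on TPM, 1688 and 1445 on scaled TPM, 1205 and 1904 with upper quartile scaling and 1829 and 1417 with limma-voom; 1445 fell on both scales, and 921 to 1205 when 1 pair was left out, the fewest without replicate 2. Of the 15 tested list genes 1 was higher on TPM (hsp26) and 2 with limma-voom (hsp26 and Hsf05 GRMZM2G133023), while 11 were lower on TPM and 3 on scaled TPM, with upper quartile scaling and with limma-voom. On both scales 3 fell, but 1 without the level filter (hsp18c) and 1 without the replicate block (CPN60I GRMZM2G111477), and 2 to 4 when 1 pair was left out (the fourth, without replicate 3, was Hsf26); hsp26 rose in each of these. The paired fit, with the replicate block, thus gave 2 calls that the fit without it did not. The causes were not tested. Low reads limit hsp82 in normal and HSP18 in ded1-ref libraries.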
